A study of Rattus norvegicus with 17 samples.

Results

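The dentate gyrus is the region of the hippocampus in which granule cells receive cortical input and send mossy fibres to CA3 (cornu ammonis, CA). A set of 8 of its marker genes was followed through hippocampal RNA-Seq libraries from 17 wild-type rats. The study listed 39 genes as enriched in the dentate gyrus, and these 8 were the ones whose symbol was paired with an Ensembl identifier in the study's gene lists. The other 31 had no identifier there and were not analysed here. All 8 were paired through lists of genes whose methylation differed between sites, so they are not a random sample of the 39. None was at exactly 0 in all libraries, so all 8 were tested, and each averaged 1 CPM or more (CPM being the gene's count scaled to an equal total per library, approximated from the deposited values).

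SAS Sprague Dawley male rats were kept without treatment at 3 laboratories, and 1 library was made from the whole hippocampi of each rat. Site #1 gave 5 rats and Site #2 gave 6 rats, which came from Charles River at 8.3 weeks of age and were killed 18 to 19 days after arrival. Site #3 gave 6 rats from Envigo, which arrived at 8.0 weeks and were killed after 27 days. Site #3 thus differed from both other sites in vendor, age, type of laboratory chow and dissection buffer, which Site #1 and Site #2 shared. Only at Site #3 were the rats double-housed and the buffer bubbled, and the chow at the breeding site was also different there. Cage size differed between all sites, and Site #1 alone had ventilated cages and paper bedding. Factors that change between the same sites cannot be told apart. The hippocampus was cut out as a whole, and the question for the dentate markers is whether more or less dentate gyrus went into some libraries than into others. In such bulk tissue, fewer granule cells and less RNA per granule cell cannot be told apart. The study took its region markers from a database of hippocampal principal neurons. The part of other cell types in the marker values was not tested.

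Granule cells are glutamatergic neurons, and their mossy fibre terminals are known for strong facilitation and for a dependence on cyclic AMP. C1ql2 encodes a secreted C1q-like protein of the mossy fibre synapse. Tiam1 encodes an exchange factor that activates the GTPase Rac in dendritic spines, and Pde7b a phosphodiesterase that breaks down cyclic AMP. Plekha2 encodes a protein that binds phosphoinositides and Pitpnm2 a phosphatidylinositol transfer protein. Slc29a4 encodes a plasma membrane monoamine transporter, and Slc4a4 an electrogenic sodium bicarbonate cotransporter that is also well known from astrocytes. Zfp536 encodes a zinc finger regulator of transcription.

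The promoter sequences of 3 markers are shown because the results below turn on these genes. Slc29a4 came closest to a difference between sites, C1ql2 varied apart from the other markers, and Tiam1 varied most like them. RefSeq (GRCr8) gave a promoter for 6 of the 8 genes, which were C1ql2, Pitpnm2, Slc29a4, Slc4a4, Tiam1 and Zfp536. Each sequence is the 250 bases before the annotated start, read 5′ to 3′ on the gene's strand, and capitals mark the GC box motif GGGCGG (searched also as CCGCCC on the other strand).
C1ql2, chr13:34023652-34023901, plus strand: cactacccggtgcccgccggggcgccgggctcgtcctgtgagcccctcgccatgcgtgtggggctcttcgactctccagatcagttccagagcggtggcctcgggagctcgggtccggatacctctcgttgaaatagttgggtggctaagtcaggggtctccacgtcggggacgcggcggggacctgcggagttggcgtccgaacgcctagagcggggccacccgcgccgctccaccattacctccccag
Slc29a4, chr12:16988339-16988588, minus strand: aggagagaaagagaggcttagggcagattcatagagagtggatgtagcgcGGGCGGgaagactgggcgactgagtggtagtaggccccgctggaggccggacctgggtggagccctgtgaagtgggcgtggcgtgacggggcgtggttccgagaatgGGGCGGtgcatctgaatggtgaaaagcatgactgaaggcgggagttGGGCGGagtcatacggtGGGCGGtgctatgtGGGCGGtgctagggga
Tiam1, chr11:42646083-42646332, minus strand: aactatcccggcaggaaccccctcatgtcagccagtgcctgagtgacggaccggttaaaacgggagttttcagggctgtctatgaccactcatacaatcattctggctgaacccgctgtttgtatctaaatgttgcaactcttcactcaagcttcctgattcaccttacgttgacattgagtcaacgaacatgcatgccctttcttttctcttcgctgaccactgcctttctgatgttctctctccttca
The Slc29a4 window held 5 matches to the GC box, and the windows of the other 5 genes held 0. Of all 33469 RefSeq promoter windows of this length, 30.5% held at least 1 match and 1.72% held 5 or more. The GC content was 68.8% for C1ql2, 62.4% for Slc29a4 and 48.0% for Tiam1, against a median of 51.2% over all windows. These matches describe the sequence only. Which start site was used in these hippocampi was not analysed here.

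The dentate markers differed between single rats by at most 1.60-fold, the range of Slc4a4. The deposited values are on a log2 scale and already normalized between libraries. Judged from their spread, differences of low genes look compressed. Over the 17 libraries the range from lowest to highest was 0.28 log2 units for Pitpnm2, 0.29 for Slc29a4, 0.38 for Tiam1, 0.43 for Pde7b, 0.48 for both Plekha2 and Zfp536, 0.54 for C1ql2 and 0.68 for Slc4a4. The narrowest of these, that of Pitpnm2, is a 1.21-fold range. The median range of the markers was 0.45, against 0.34 over the 13679 genes that averaged 1 CPM or more. Within sites, the SD of 6 markers was larger than that of 72.4% to 95.7% of the genes within 0.5 log2 units of their level, that of Pitpnm2 was larger than 51.8% and that of Slc29a4 larger than 19.3%.

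**Figure D1:**
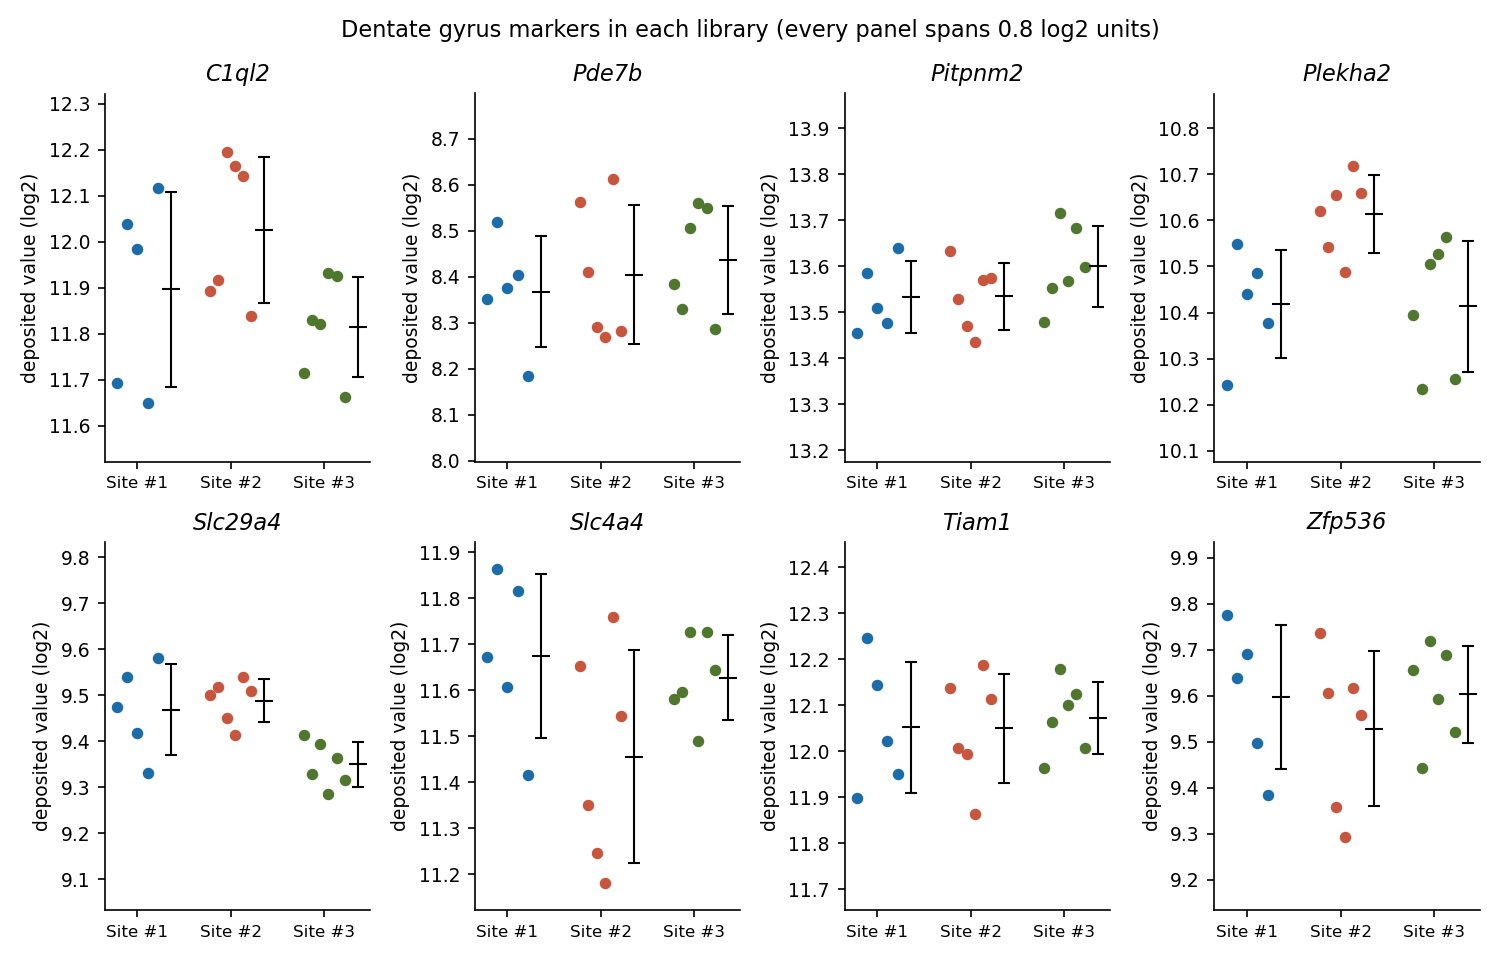
Deposited log2 value (y axis) of each dentate gyrus marker in the libraries of Site #1, Site #2 and Site #3 (x axis). Each point is 1 rat, in the order of replicate numbers, and the bar beside the points is the mean ± SD (n = 5, 6 and 6); the sites overlap in every panel, and the Slc29a4 points of Site #3 sit lowest with 9.29 to 9.41.

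The synaptic marker C1ql2 had values of 11.69, 12.04, 11.98, 11.65 and 12.12 in the 5 rats of Site #1. At Site #2 its values had a lowest of 11.84, a median of 12.03 and a highest of 12.19, and at Site #3 they had a lowest of 11.66, a median of 11.83 and a highest of 11.93. Site #2 was thus highest on average and Site #3 lowest, and Site #1 spanned nearly the range of both. The within-site SD of C1ql2 was 0.16, which was larger than that of 93.8% of the 1711 genes within 0.5 log2 units of its level.

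The Rac activator Tiam1 had values of 11.90, 12.25, 12.14, 12.02 and 11.95 at Site #1. It ran from 11.86 to 12.19 with a median of 12.06 at Site #2, and from 11.96 to 12.18 with a median of 12.08 at Site #3. The 3 site means of Tiam1 lay within 0.022 log2 units of each other, and 0.98% of its sum of squares lay between sites. For the phosphodiesterase gene Pde7b that share was 5.08%, with site means (± SD) of 8.37 ± 0.12 at Site #1 (n = 5), 8.40 ± 0.15 at Site #2 (n = 6) and 8.44 ± 0.12 at Site #3 (n = 6).

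Of the lipid signalling pair, Plekha2 had values of 10.24, 10.55, 10.44, 10.48 and 10.38 at Site #1. It ran from 10.49 to 10.72 with a median of 10.64 at Site #2, and from 10.23 to 10.56 with a median of 10.45 at Site #3. The Plekha2 values of Site #2 were mostly above those of the other sites, with overlap at the lower end. Pitpnm2 averaged 13.53 ± 0.078 (SD, n = 5) at Site #1, 13.54 ± 0.073 at Site #2 and 13.60 ± 0.088 at Site #3 (SD, n = 6 for both). Its within-site SD was 0.080.

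The monoamine transporter gene Slc29a4 had values of 9.47, 9.54, 9.42, 9.33 and 9.58 at Site #1. At Site #2 it ran from 9.41 to 9.54 with a median of 9.50, and at Site #3 from 9.29 to 9.41 with a median of 9.35. The ranges of Site #2 and Site #3 met at 9.41 (replicate 4 of Site #2 and replicate 1 of Site #3). Slc29a4 had the smallest within-site SD of the markers, 0.067, and the largest share of its sum of squares between sites, 51.4%.

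The bicarbonate cotransporter gene Slc4a4 had values of 11.67, 11.86, 11.61, 11.82 and 11.42 at Site #1. It ran from 11.18 to 11.76 with a median of 11.45 at Site #2 and from 11.49 to 11.73 with a median of 11.62 at Site #3. Site #2 had both a wide spread and the lowest rats for this gene. Its within-site SD of 0.18 exceeded that of 95.7% of the 2003 genes of like level. Zfp536 had site means (± SD) of 9.60 ± 0.16 (n = 5), 9.53 ± 0.17 (n = 6) and 9.60 ± 0.11 (n = 6), and its lowest value, 9.29, was in replicate 4 of Site #2.

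Limma was fitted to all 22664 genes with a value for each of the 3 pairs of sites, with Benjamini-Hochberg adjustment over these genes, and a gene was called at an adjusted p under 0.05. Between Site #1 and Site #2, 0 of the 8 dentate markers were called, where 0% of all genes were. Between Site #1 and Site #3, 0 of 8 were called, against 0.101% of all genes, and between Site #2 and Site #3, 0 of 8, against 1.05% of all genes. At an unadjusted p under 0.05 the markers counted 1 of 8, 1 of 8 and 3 of 8 in the 3 comparisons, where all genes gave 6.74%, 8.17% and 14.8%. The median absolute log2 difference of the markers was 0.053, 0.057 and 0.11 in the same order, and that of the genes averaging 1 CPM or more was 0.047, 0.043 and 0.060. None of the 8 had sites without overlap in any comparison, a pattern that 0.878%, 1.38% and 1.95% of all genes showed.

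**Figure D2:**
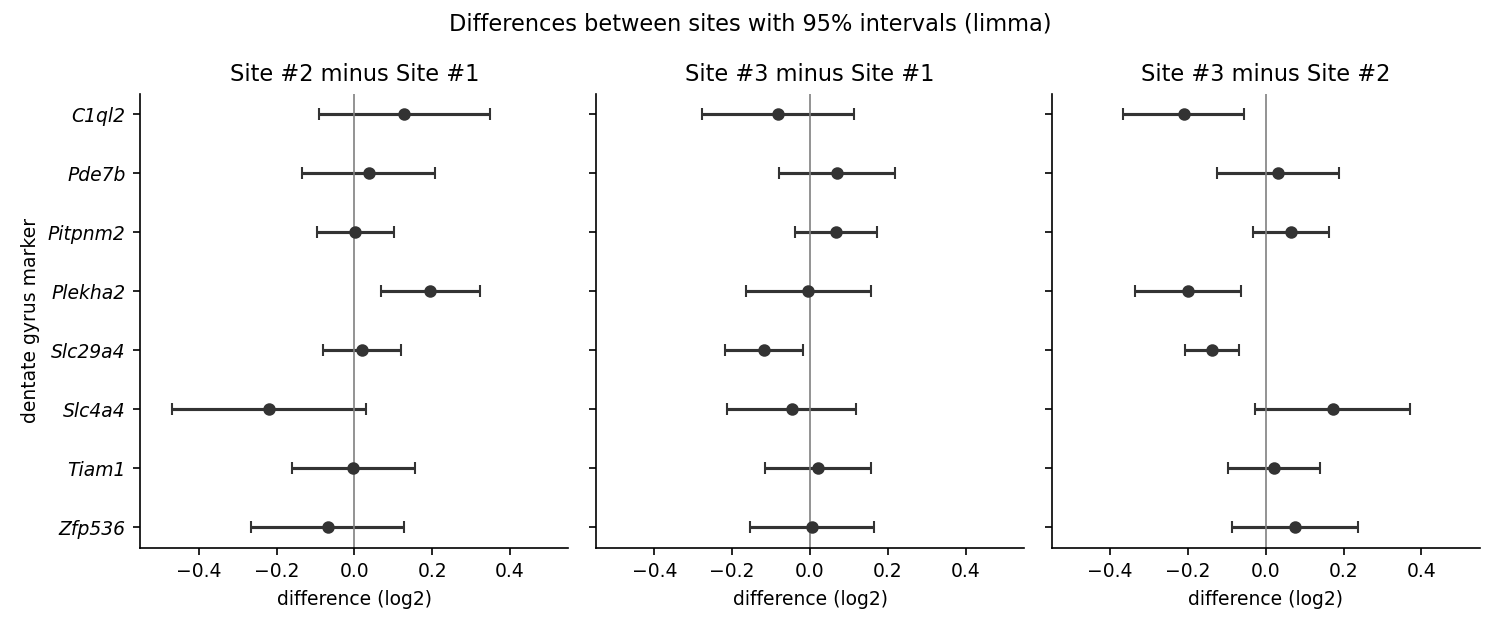
Log2 difference (x axis; the later-numbered site minus the earlier) of each dentate gyrus marker (y axis) in the 3 comparisons. Points are the limma estimates and bars their 95% intervals; the Slc29a4 interval for Site #3 minus Site #2 runs from -0.21 to -0.07, and 3 intervals of that panel lie wholly below 0.

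Between Site #2 and Site #3, the markers with the smallest p values of that comparison were all lower at Site #3. Slc29a4 differed by -0.14 log2 units (SE 0.032, 95% interval -0.21 to -0.069, limma adjusted p = 0.0618). That difference was called under 3 of the other settings, with array weights (adjusted p = 0.0369), with no mean-variance trend (0.0395) and with quantile normalization (0.0379), and its adjusted p over all 19 settings ranged from 0.0369 to 0.129. Plekha2 differed by -0.20 (SE 0.063, 95% interval -0.34 to -0.064, adjusted p = 0.147) and C1ql2 by -0.21 (SE 0.072, 95% interval -0.37 to -0.055, adjusted p = 0.184). Other markers pointed the other way, among them Slc4a4 with 0.17 (SE 0.092, 95% interval -0.027 to 0.37, adjusted p = 0.425). Of the 8 markers 5 had a positive difference and 3 a negative one, and the median difference was 0.027.

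Between Site #1 and Site #2 the Plekha2 value was 0.20 higher at Site #2 (SE 0.058, 95% interval 0.069 to 0.32, limma adjusted p = 0.658). Slc4a4 differed by -0.22 at Site #2 (SE 0.11, 95% interval -0.47 to 0.030, adjusted p = 0.753). Between Site #1 and Site #3 the Slc29a4 value differed by -0.12 (SE 0.046, 95% interval -0.22 to -0.019, adjusted p = 0.501). The remaining markers of these 2 comparisons had intervals that included 0. The widest, that of Slc4a4, allows a difference of up to 0.47 log2 units, so that the missing calls do not show the sites to be alike. Each site enters 2 of the 3 comparisons, which are therefore not independent.

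The dentate mean was taken in each library as the mean over the 8 markers of the deviation from their 17-library means. It gives each marker the same weight. It ran from -0.11 log2 units in replicate 4 of Site #2 to 0.14 in replicate 5 of the same site, which is a 1.19-fold range. At Site #1 the values were -0.056, 0.12, 0.020, -0.041 and -0.045. At Site #2 the lowest was -0.11, the median -0.0038 and the highest 0.14, and at Site #3 the lowest was -0.090, the median -0.023 and the highest 0.077. Both extremes belonged to 1 site, and the site means were 0.023 apart, against a within-site SD of 0.081. Of the sum of squares of the dentate mean, 1.69% lay between sites.

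**Figure D3:**
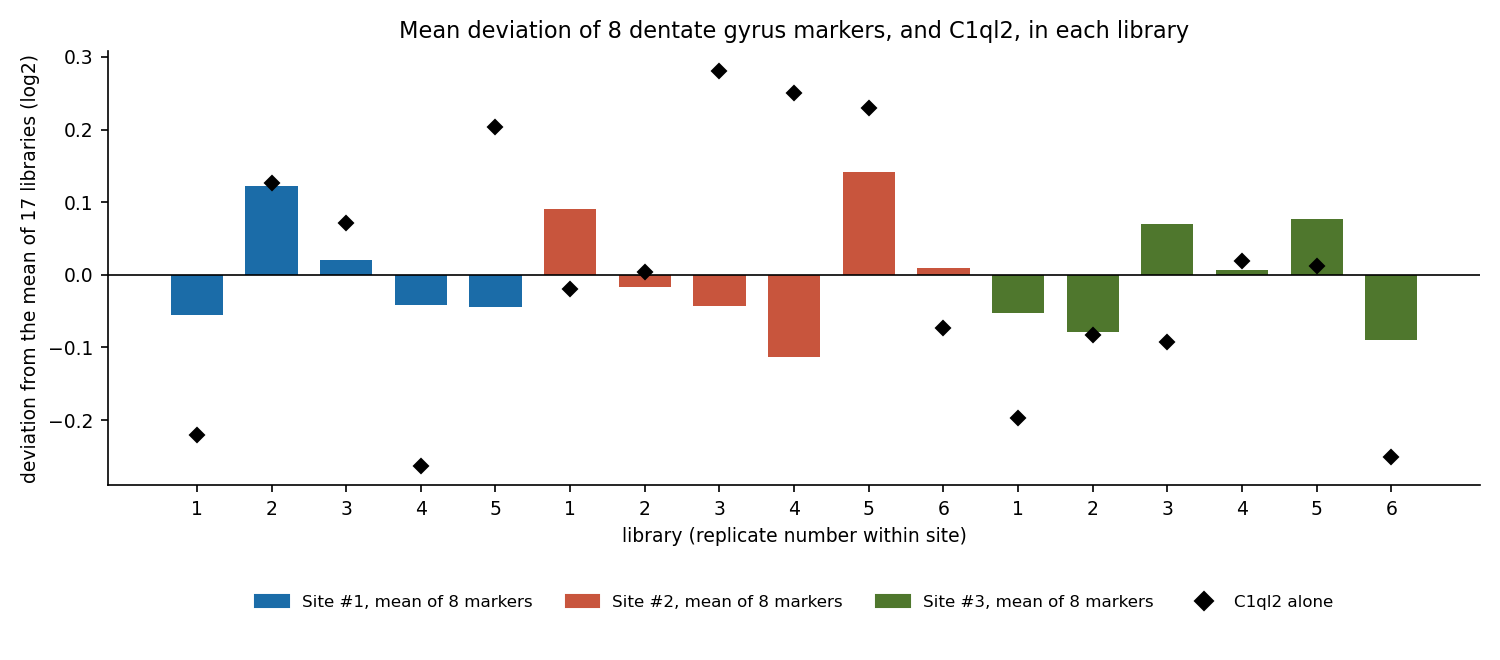
Dentate mean of each library (bars; y axis in log2 units from the mean of all 17 libraries) with the deviation of C1ql2 alone (diamonds), by replicate number within Site #1, Site #2 and Site #3 (x axis). The bars run from -0.11 to 0.14, and the C1ql2 diamonds lie far from the bars in several rats, such as replicates 3 and 4 of Site #2.

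The rats described next were picked for a high or low dentate mean. That mean is made of these same markers, so their agreement in such rats follows in part from the choice. In replicate 5 of Site #2 and in replicate 2 of Site #1, which had the highest dentate means, all 8 markers were above their own mean. In replicate 4 of Site #2, which had the lowest dentate mean, 2 of the 8 were above their mean, and C1ql2 was one of these with 12.16. In that rat Pitpnm2, Slc4a4, Tiam1 and Zfp536 had their lowest values of all 17 libraries.

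After each site's mean was removed, the 28 pairs of markers had a median Pearson r of 0.33 over the 17 libraries (Spearman, 0.31), and 26 of the 28 were above 0. All pairs of the 13679 genes with at least 1 CPM had a median of -0.0050 and quartiles of -0.26 and 0.25. An r of at least 0.6 was found in 8 of the 28 marker pairs (28.6%) and in 4.43% of all pairs. These correlations are descriptions. All points share the normalization between libraries, and the pairs share members. Within single sites, over few libraries, the median r was 0.28 at Site #1 (n = 5), 0.73 at Site #2 (n = 6) and 0.48 at Site #3 (n = 6), and 17, 21 and 25 of the 28 pairs were above 0.

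**Figure D4:**
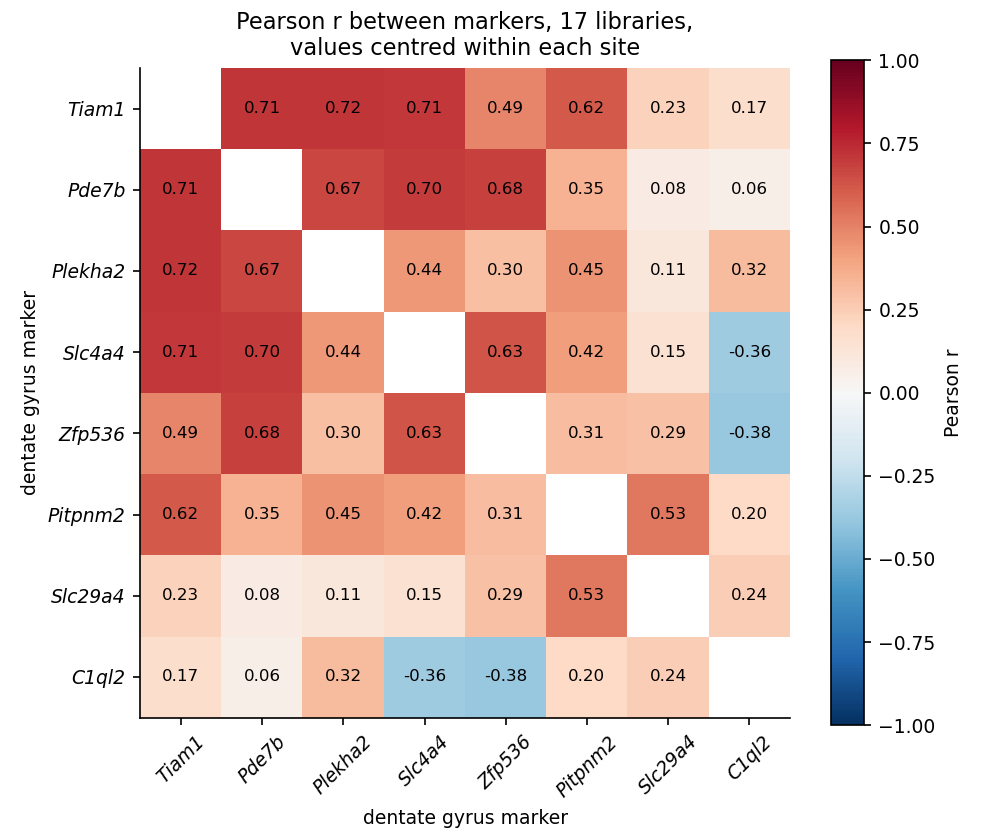
Pearson r between each pair of dentate gyrus markers (both axes) over 17 libraries after the mean of each site was removed; red is positive and blue negative. Tiam1, Pde7b, Plekha2, Slc4a4, Zfp536 and Pitpnm2 form a block with r from 0.30 to 0.72 in the pooled libraries, while the C1ql2 row runs from -0.38 to 0.32.

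With the sites pooled, 6 markers formed a block of positively related genes, which was seen from the values and not set by a rule. Tiam1 had an r of 0.72 with Plekha2, 0.71 with Pde7b, 0.71 with Slc4a4 and 0.62 with Pitpnm2. Pde7b had an r of 0.70 with Slc4a4, 0.68 with Zfp536 and 0.67 with Plekha2. The lowest r of the 15 pairs in this block was 0.30 and the median 0.62. Within Site #1 alone 4 of these 15 pairs were below 0, the lowest being -0.64 for Pitpnm2 with Zfp536, and the block's median was 0.38; within Site #2 and Site #3 none was below 0, and the medians were 0.82 and 0.49. Slc29a4 was weakly related to most markers, with 0.08 to 0.29 except for 0.53 with Pitpnm2.

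C1ql2 stood apart from that block. Its r was -0.36 with Slc4a4, -0.38 with Zfp536, 0.06 with Pde7b, 0.17 with Tiam1, 0.20 with Pitpnm2, 0.24 with Slc29a4 and 0.32 with Plekha2. With the mean of the other 7 markers C1ql2 had an r of -0.03 (Spearman, -0.14). With their respective others, Tiam1 had 0.85, Pde7b 0.79, Plekha2 0.68, Pitpnm2 0.59, Slc4a4 0.57, Zfp536 0.49 and Slc29a4 0.32. The median r with the single markers was 0.17 for C1ql2 and 0.23 for Slc29a4. The highest C1ql2 value, 12.19 in replicate 3 of Site #2, came with the second-lowest Slc4a4 value, 11.25. Leaving C1ql2 out raised the median r between markers to 0.45 and the range of the mean to 0.29, and leaving Slc29a4 out gave 0.44 and 0.27.

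Some of these markers also varied with the main axis of the whole transcriptome. The first principal component (PC1) of the site-centred genes with at least 1 CPM held 25.9% of their variance. The dentate mean had an r of -0.62 with it. Single markers ranged from -0.75 for Pde7b, -0.70 for Zfp536, -0.65 for Slc4a4 and -0.55 for Tiam1, over -0.31 for both Pitpnm2 and Plekha2, to 0.05 for Slc29a4 and 0.21 for C1ql2. With this component removed, which was tried after the data were seen, the median r over all 28 pairs was 0.32. In the block of 6 it fell from 0.62 to 0.32, and between C1ql2 and the others it was 0.29 in place of 0.17. The part of RNA quality or of other cell types in this axis was not tested. Replicate 1 of Site #3 stood apart on the next component, with 54.0% of its sum of squares, and without that rat the median r was 0.37 and the range of the dentate mean 0.25.

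An NMDA receptor subunit gene and a Rab regulator gene were among those that varied most like the dentate mean. Among 946 genes with a symbol and at least 1 CPM, the 5 with the highest r were Cecr6 (0.90), Tbc1d16 (0.87), Cntnap5b (0.85), Zcchc14 (0.81) and Grin2b (0.81). Tbc1d16 encodes an activator of Rab GTPase hydrolysis, Cntnap5b a contactin-associated protein and Grin2b an NMDA receptor subunit. The 5 with the lowest r were Zfp213 (-0.77), Vdac2 (-0.71), Pebp1 (-0.71), Osgep (-0.69) and AABR07070043.1 (-0.69). Vdac2 encodes a channel of the mitochondrial outer membrane and Pebp1 an inhibitor of Raf kinase. These genes also varied with PC1, with an r of -0.54 to -0.78 for the first 5 and of 0.31 to 0.74 for the last 5, and for Pebp1 (0.72) and Osgep (0.74) that r was larger in size than the r with the dentate mean. Over all 13671 other genes the quartiles of r were -0.29 and 0.29 and the 95th percentile was 0.62.

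Genes that work in the same pathways as the markers were taken as 6 lists of 39 genes in all. A gene could enter only if the study's gene lists paired its symbol with an identifier, so the lists are not a random sample of these pathways. None of the 39 was called by limma for Site #1 vs Site #2, Site #1 vs Site #3 or Site #2 vs Site #3. Of all genes, 0%, 0.101% and 1.05% were called in these comparisons. In the same order, 4, 2 and 7 of the 39 had an unadjusted p under 0.05. These are 10.3%, 5.13% and 17.9% of the 39, where all genes gave 6.74%, 8.17% and 14.8%. Their median r with the dentate mean was 0.11, against -0.04 over all 13671 other genes. Of the 39, 23 had an r above 0 and 7 had 0.6 or more, where the 95th percentile of the other genes was 0.62. These 7 were Syt7, Grin2a and Grin2b of the synaptic list, Kalrn and Wasf3 of the actin list, and Pde10a and Adcy9 of the cyclic nucleotide list.

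Of 7 genes for mossy fibre synapses and glutamate receptors, Grin2b had the highest r (0.81) and Lrfn2, a synaptic adhesion gene, the lowest (-0.18). The Rac and actin list of 7 held Kalrn, which encodes kalirin, another Rac activator of spines, with an r of 0.80, and Cyfip1, a gene of the WAVE complex, with -0.29. Of 5 cyclic nucleotide genes, the phosphodiesterase gene Pde10a had 0.69 and the adenylyl cyclase gene Adcy4 -0.52.

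Of 4 phosphoinositide genes, the phospholipase gene Plcb4 had 0.45 and the kinase subunit gene Pik3cd -0.16. Of 5 transport genes, Slc22a3, an organic cation transporter gene with a low mean of 3.32, had the highest r (0.05) and the carbonic anhydrase gene Car12 the lowest (-0.56). Of 11 genes for forebrain development, Wnt signals and neurotrophins, the neurotrophin receptor gene Ntrk2 had 0.51 and the Wnt effector gene Tcf7l2 -0.31. Each pathway list thus held genes on both sides of 0.

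**Figure D5:**
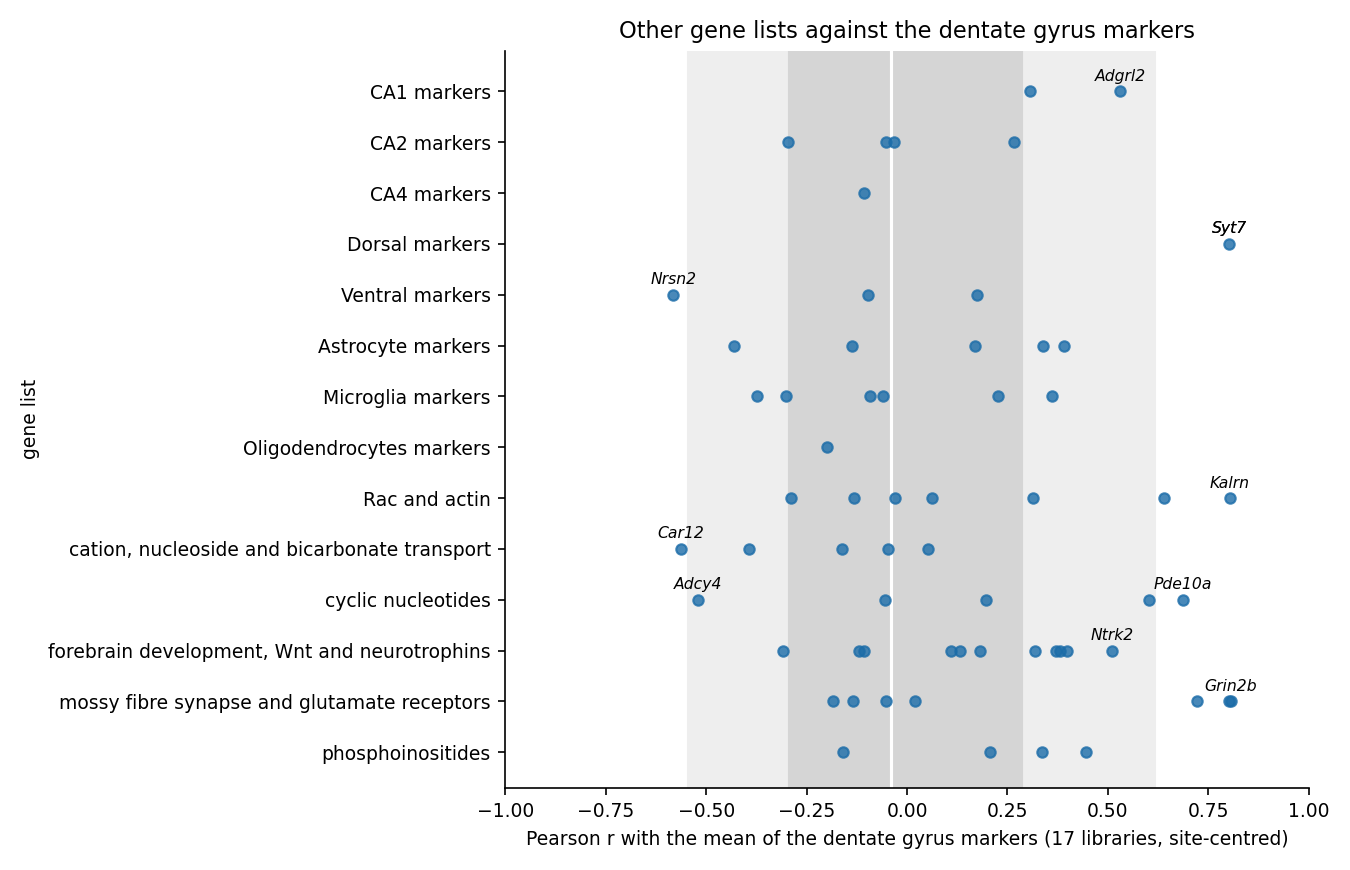
Pearson r of single genes (points) with the dentate mean (x axis) over 17 libraries after the mean of each site was removed, by gene list (y axis). The dark band runs between the quartiles of 13671 genes (-0.29 to 0.29), the light band their 5th to 95th percentile (-0.55 to 0.62) and the white line their median; Grin2b, Syt7 and Kalrn lie to the right of both bands at 0.80 to 0.81.

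Markers of the other hippocampal regions that had an identifier numbered 11, and their median within-site SD of 0.17 was above the 0.12 of the dentate markers. The CA1 markers Adgrl2 (0.53) and Mpped1 (0.31) had a positive r with the dentate mean. The 4 CA2 markers ran from -0.30 for Dusp5 to 0.27 for Cacng5, and the CA4 marker Ajap1 had -0.11. The dorsal marker Syt7, a synaptotagmin gene, had 0.80, and the ventral markers ran from -0.58 for Nrsn2 to 0.17 for Tenm4. Dusp5 was the only gene of these lists that was called, with 0.19 log2 units more at Site #3 than at Site #2 (SE 0.039, limma adjusted p = 0.0460). In that comparison 1.05% of all genes were called.

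Cell type markers were taken from the study's own list. The mean log2 value of 5 astrocyte markers in a library ran from 12.93 to 13.09 at Site #1, from 12.82 to 12.98 at Site #2 and from 12.94 to 13.01 at Site #3. That of 6 microglia markers ran from 9.16 to 9.43, from 9.07 to 9.44 and from 9.36 to 9.51. With the dentate mean these lists had median r values of 0.17 and -0.08, from -0.43 for Aldh1l1 to 0.39 for Slc1a3 among astrocyte markers and from -0.37 for C1qa to 0.36 for P2ry13 among microglia markers. The neuron marker Gad2 had 0.26. The oligodendrocyte marker Cers2 had -0.20. None of these markers was called in any comparison.

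Slc4a4, which astrocytes are known to express, had an r of 0.63 with the astrocyte gap junction gene Gja1 and 0.55 with the glutamate transporter gene Slc1a3, but of 0.23 with Gfap and -0.25 with Aldh1l1. It also had an r of 0.89 with Ntrk2, 0.87 with Wasf3 and 0.86 with Syt7, genes picked after their values were seen. C1ql2 had its highest r among genes with a symbol with Rtn4r, the Nogo receptor gene (0.86, Spearman 0.85), which was also seen after the fact.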

How the data were processed

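Libraries were grouped by the site and replicate number of the sample labels. Reads were trimmed by the authors (Trimmomatic), mapped to the rn6 genome (HISAT2) and assigned to Ensembl genes (featureCounts), and their differential expression came from DESeq2. The values they deposited are log2 values, 1 per gene and library, normalized between libraries by a step not given in the sources used here. Negative values and a spread that shrinks for low genes (median SD 0.0027 below a mean of 0, 0.086 from 8 upward) look like a regularized log. Differences may therefore be understated for low genes. The values keep no counts, so the depth behind a value is unknown, and precision is set by how many rats a site had. Within-site spread is between rats.

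Of 32494 genes listed, 9830 at exactly 0 in all libraries were left out. Limma (two-sided, lmFit and eBayes, mean-variance trend, Benjamini-Hochberg over 22664 genes) was fitted to the libraries of 2 sites at a time. The CPM filter used 2 raised to the deposited value, scaled to 1 sum per library. Symbols came from the study's supplementary gene lists, mostly of genes whose methylation differed between sites. Genes with a symbol are therefore not a random sample of all genes. The markers, the pathway lists and the tests were chosen with earlier results of these data known. Genes named besides the markers were the 5 with the highest and the 5 with the lowest r with the dentate mean, and in each list those called or with the highest or lowest r. The limma code was tested on simulated data. Alternatives were array weights, a filter at 1 CPM, no trend, all 17 libraries in 1 fit, the replicate number as a block, quantile normalization, median centring and leaving out each library. R 4.3.3, limma 3.58.1 and Python 3.11.15 were used. RRBS libraries were not analysed here, and the neuron marker list is not reported as a whole.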

Additional observations from a re-analysis of the deposited data

How the results depend on the processing

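The count of dentate markers called was 0 under all 18 alternatives for Site #1 vs Site #2, all 18 for Site #1 vs Site #3 and 16 of 19 for Site #2 vs Site #3. It was 1 (Slc29a4) with array weights, 1 with no trend and 1 with quantile normalization. Of all 22664 genes, 265, 290 and 237 were called under these settings in the same order, against 239 in the main fit. The range of the dentate mean stayed within 0.23 to 0.29 log2 units without each marker or library, and is 1.95 in units of SD when deviations are divided by each gene's SD, which is another scale. The median r between markers ran from 0.29 to 0.46 without each library or marker. Its leave-one-out SE was 0.17, which is large beside the median of 0.33.

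Direction reversed in 35 refits of single markers, all uncalled and all for differences that were near 0. For Site #1 vs Site #2 these were Pitpnm2 with the replicate block (-0.0059) and quantile normalization (-0.0063) and Tiam1 with median centring (0.017). For Site #1 vs Site #3 they were Plekha2 with the replicate block (0.027), Tiam1 with array weights (-0.0011) and Zfp536 with array weights (-0.018), and for Site #2 vs Site #3 Tiam1 with median centring (-0.0017). Without single libraries, the Site #1 vs Site #2 difference ran from -0.0084 to 0.075 for Pde7b, from -0.018 to 0.028 for Pitpnm2, from -0.015 to 0.047 for Slc29a4 and from -0.041 to 0.046 for Tiam1. For Site #1 vs Site #3 it ran from -0.049 to 0.031 for Plekha2, from -0.018 to 0.069 for Tiam1 and from -0.047 to 0.050 for Zfp536, and for Site #2 vs Site #3 from -0.015 to 0.050 for Tiam1. The reversals with the replicate block had the same values as leaving out replicate 6 of Site #2 (-0.0059 for Pitpnm2) or of Site #3 (0.027 for Plekha2). Site #1 had no replicate 6. The cause of the other reversals was not tested.

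Libraries of the same replicate number are different rats. Their deviations had mean correlations of -0.0034 (-0.46 to 0.39), -0.17 (-0.33 to -0.025) and 0.030 (-0.43 to 0.20) in the 3 comparisons. With 5 or 6 values per comparison, these means cannot show whether the number marks a shared step. With the replicate block 0 markers were called in each comparison, and over all genes 0 were called for Site #1 vs Site #3 (23 without it) and 43 for Site #2 vs Site #3 (239 without it). The latter count was 482 of the 13679 genes with at least 1 CPM and 81 to 333 without single libraries; for Site #1 vs Site #3 it was 36 with all 17 libraries in 1 fit and 9 to 30 without single libraries. Median centring moved the 120 higher and 119 lower genes of Site #2 vs Site #3 to 73 and 160. None of the 27 sets of marker values and dentate means per site held a rat far from the others by Dixon's test at 95%. Depth cannot be judged, since no counts were used.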
